A study of Mus musculus with 7 samples.

Results

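The bicarbonate transporters and sodium-proton exchangers described here are 8 mouse genes, Slc4a2, Slc4a3, Slc4a4, Slc4a5, Slc4a7, Slc4a11, Slc9a7 and Slc9a9, chosen by the gene symbol that the array's annotation gives to a feature, with the feature of highest mean taken for each gene. Of the 8, 7 were measured among 19505 genes in all, 5 of the SLC4 family and 2 of the SLC9 family, each by 1 feature. Slc4a7 was not analysed here. RNA came from nucleus pulposus, the soft centre of a disc of the spine, which was dissected from lumbar and caudal discs and pooled per animal, so that each of 7 Affymetrix arrays is a separate mouse. The 3 MCT4KO mice were 14 months old and lacked the lactate and proton exporter MCT4 (Slc16a3) in the whole body. The 4 WT mice were 13 months old. Both genotypes are described as littermates from crosses of heterozygotes that had been backcrossed to C57Bl/6N. The ages of 13 and 14 months do not bear this out between the groups, so they are not taken as litter-matched. The series text names the strain C57Bl/6N for MCT4KO and C57Bl/6 for WT, while the sample labels give C57BL/6 to both. The age difference and any difference of substrain cannot be told apart from genotype, and the sources used here do not give sex.

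Cells keep their internal pH by moving protons and bicarbonate across membranes. Sodium-bicarbonate cotransporters of the SLC4 family usually bring base in, the chloride-bicarbonate exchangers of the same family usually let base out, and sodium-proton exchangers of the SLC9 family export protons or, in internal membranes, set the pH of endosomes and Golgi. The nucleus pulposus has no blood vessels of its own and lives by glycolysis, which makes lactate and protons together, and MCT4 carries both out of the cell.

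The genotype was checked first on Slc16a3 itself. Its deposited log2 value was 5.02, 4.98 and 4.47 in MCT4KO 1 to 3, against 13.55, 13.35, 13.61 and 13.40 in WT 1 to 4. All MCT4KO values lay below the median of the array's negative control features. With that median as the MCT4KO level, the transcript was at least 179.9-fold lower in MCT4KO on the deposited scale. The limma adjusted p, on the readings themselves, was 6.7e-09. The control median was 5.91 to 6.08 on the 7 arrays and serves below as the background. Among markers of nucleus pulposus, 9 of 11 measured read above it on all 7 arrays, and Foxa1 read below it on all 7. Neutrophil and marrow markers had list means of 5.33 to 5.99 in MCT4KO and 6.19 to 10.07 in WT over 10 genes, with WT 2 highest and WT 1 next at 7.89. Erythroid markers, of which 3 of 8 were measured, had list means of 6.23 to 6.46 in MCT4KO and 6.45 to 7.91 in WT. Cartilage end plate markers had list means of 9.01, 8.05 and 7.35 in MCT4KO 1 to 3 and 7.85 to 8.37 in WT over 8 genes. Of these 8, 1 had a limma adjusted p under 0.05, as 0.59% of all genes had.

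No bicarbonate transporter or sodium-proton exchanger among the 7 passed the test for a change between the genotypes. By limma with Benjamini-Hochberg adjustment over all 19505 genes, 0 of 7 had an adjusted p under 0.05, as 0.59% of all genes had (0.118% higher and 0.472% lower in MCT4KO). At an unadjusted p under 0.05 there were also 0 of 7, against 12.7% of all genes (5.76% higher and 6.9% lower). The groups overlapped for all 7, while 12% of all genes had groups that did not overlap. The log2 changes were above 0 for 4 of 7, with a median of 0.047, against 10331 of 19505 genes above 0 and a median of 0.017 over all genes. Whether fewer cells or less RNA per cell lies behind a level cannot be told apart in bulk tissue. For the 4 carriers above background, the 95% intervals of the change together ran from 0.57 to 1.74-fold on the deposited scale.

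**Figure D1:**
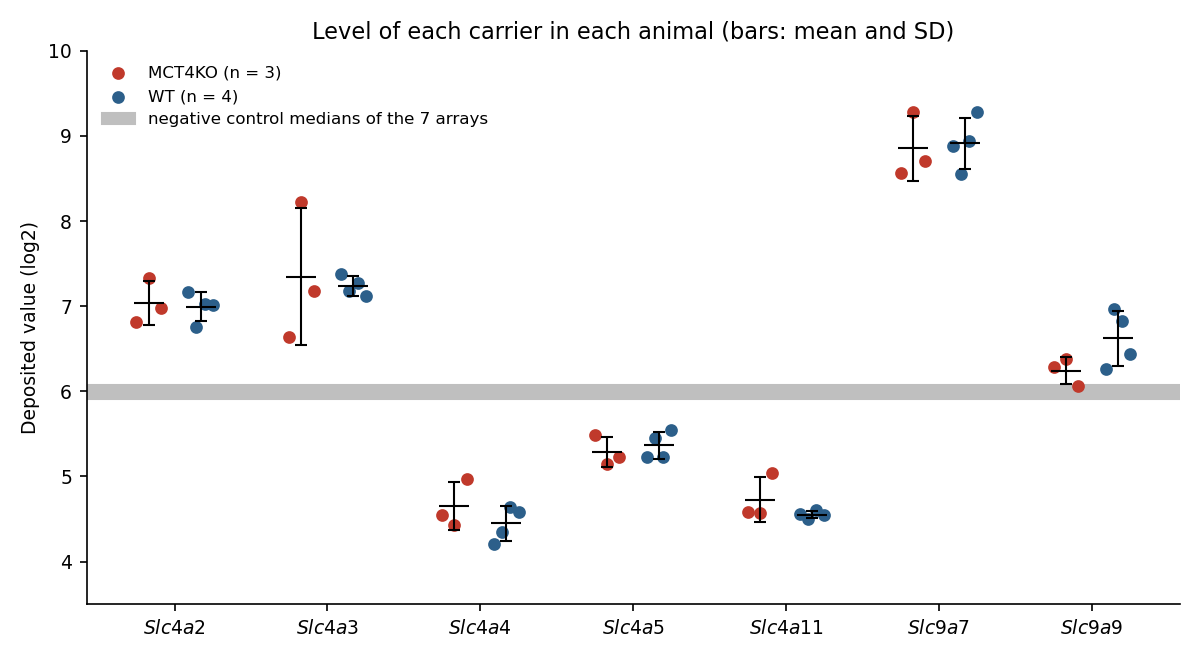
Deposited log2 value (vertical axis) of each of the 7 measured carriers in every animal, MCT4KO in red (n = 3) and WT in blue (n = 4), with the mean and SD as black bars and the range of the negative control medians, 5.91 to 6.08, as a grey band. Slc4a2, Slc4a3 and Slc9a7 lie above the band in every animal. Slc9a9 lies above it except in MCT4KO 3, where 6.07 falls inside the band though above that array's own control median of 6.00. Slc4a4, Slc4a5 and Slc4a11 lie below the band, and the 2 genotypes overlap for each gene. Heights of different genes are not comparable with each other.

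The carriers fell into 2 sets by their standing against the negative controls. Slc4a2, Slc4a3, Slc9a7 and Slc9a9 read above the control median on all 7 arrays, as 50.4% of all genes did. Slc4a4, Slc4a5 and Slc4a11 read below it on all 7, as 39.1% of all genes did. None of the 7 carriers passed the stricter limit of the 95th percentile of the controls, 9.59 to 10.03, on any array, a limit that 19.1% of all genes passed on every array. The signal of every carrier was therefore within the range of the controls, which limits what a difference can show.

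Slc4a2 encodes the widely expressed chloride-bicarbonate exchanger AE2, best known for supplying chloride to the acid-secreting osteoclast and parietal cell. It read 6.82, 7.33 and 6.98 in MCT4KO 1 to 3, against 7.17, 6.76, 7.03 and 7.02 in WT 1 to 4. The highest value was an MCT4KO animal and the lowest a WT animal, with the others between. The means were 7.04 ± 0.26 in MCT4KO and 6.99 ± 0.17 in WT (SD, n = 3 and 4), a log2 change of 0.05 ± 0.16 (SE; adjusted p = 0.93). The interval of the change, 0.80 to 1.33-fold, includes no change. Of 7 osteoclast markers, 5 were below the control median on all arrays, Acp5 read above it in WT 1 alone and Ctsk, a collagen-degrading protease, read 11.14 to 11.37 in MCT4KO and 11.25 to 11.39 in WT, with list means of 5.25 to 5.53 in MCT4KO and 5.27 to 5.52 in WT.

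Slc4a3 encodes AE3, the chloride-bicarbonate exchanger of heart and nerve cells. It read 6.63, 8.22 and 7.18 in MCT4KO 1 to 3, against 7.38, 7.17, 7.28 and 7.11 in WT 1 to 4. The WT animals lay close together, while MCT4KO 2 stood above all of them and MCT4KO 1 below all of them. The SD was 0.81 in MCT4KO and 0.12 in WT, and the MCT4KO SD exceeded that of 99.0% of genes in the same 3 animals. The log2 change of 0.11 ± 0.31 (SE; adjusted p = 0.91) was smaller than this spread, with an interval of 0.67 to 1.74-fold. It turned to -0.33 without MCT4KO 2 (adjusted p = 0.48) and was 0.47 without MCT4KO 1 (adjusted p = 0.63). Neural and glial markers, of which 4 of 6 were measured, had list means of 5.10, 5.09 and 5.16 in MCT4KO 1 to 3 and 5.21 to 5.41 in WT. The 1 of them above the control median on all arrays, the neuronal tubulin gene Tubb3, read 6.50, 6.92 and 6.71 in MCT4KO 1 to 3. It read 6.46 to 6.57 in WT. Among the MCT4KO animals, Tubb3 and Mbp were highest in MCT4KO 2, while Sox10 and Nefl were lowest there. Muscle markers were 6.54, 5.78 and 6.18 in MCT4KO 1 to 3 and 5.67 to 6.62 in WT, lowest of the MCT4KO animals where Slc4a3 was highest. The part of other cell types in the spread of Slc4a3 was not tested.

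Slc4a4 and Slc4a5 encode the electrogenic sodium-bicarbonate cotransporters NBCe1 and NBCe2, known from kidney, pancreas and choroid plexus. Slc4a4 read 4.55, 4.44 and 4.97 in MCT4KO 1 to 3, against 4.21, 4.35, 4.64 and 4.59 in WT 1 to 4, between percentiles 15.2 and 28.3 of the negative controls. Slc4a5 read 5.48, 5.14 and 5.23 in MCT4KO 1 to 3, against 5.23, 5.45, 5.23 and 5.54 in WT 1 to 4, between percentiles 32.1 and 39.5. Neither gene gave a signal above background in any animal, so no fold is given, and the adjusted p was 0.65 for Slc4a4 and 0.85 for Slc4a5. The value of Slc4a5 was exactly the same in 3 arrays, MCT4KO 3, WT 1 and WT 3, as happens in 2 or more arrays for 9.23% of all genes in the deposited table. These readings do not show that the cotransporters are absent, only that these features were not above the controls.

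Slc4a11 encodes a family member that does not carry bicarbonate and instead conducts protons or hydroxide, and its loss in people damages the corneal endothelium. It read 4.58, 4.57 and 5.04 in MCT4KO 1 to 3, against 4.56, 4.50, 4.60 and 4.55 in WT 1 to 4. All of these lay between percentiles 19.9 and 29.6 of the negative controls, with MCT4KO 3 the highest and the other MCT4KO animals within the range of WT. No fold is given for values below background, and the adjusted p was 0.65. The WT animals read nearly alike, with an SD of 0.042, and 2.16% of genes had a smaller SD in WT.

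Slc9a7 encodes NHE7, an exchanger of the trans-Golgi network. It read 8.57, 9.28 and 8.70 in MCT4KO 1 to 3, against 8.88, 8.55, 8.94 and 9.28 in WT 1 to 4. These values lay between percentiles 87.9 and 92.8 of the negative controls, and the 2 groups covered the same range. The means were 8.85 ± 0.38 in MCT4KO and 8.91 ± 0.30 in WT (SD, n = 3 and 4). The log2 change was -0.06 ± 0.22 (SE; adjusted p = 0.93), an interval of 0.68 to 1.34-fold, and its sign turned under quantile normalization (0.047). MCT4KO 2 was the highest MCT4KO animal for all 4 carriers above background, Slc4a2, Slc4a3, Slc9a7 and Slc9a9. It stood 0.29, 0.88, 0.43 and 0.13 above the MCT4KO mean on the log2 scale. Without it the changes were -0.10, -0.33, -0.28 and -0.44 (adjusted p = 0.84, 0.48, 0.59 and 0.42). Leaving out the highest animal of a group lowers its mean by construction, and how often MCT4KO 2 was highest over all genes was not counted.

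Slc9a9 encodes NHE9, an exchanger of recycling and late endosomes that makes their lumen less acidic. It read 6.29, 6.37 and 6.07 in MCT4KO 1 to 3, against 6.26, 6.96, 6.82 and 6.44 in WT 1 to 4. MCT4KO 1 and MCT4KO 2 read above WT 1, and the other 3 WT animals read above all MCT4KO animals. The means were 6.24 ± 0.16 in MCT4KO and 6.62 ± 0.33 in WT (SD, n = 3 and 4), a log2 change of -0.38 ± 0.19 (SE; unadjusted p = 0.075, adjusted p = 0.45). This was the smallest p among the 7 carriers, and the interval was 0.57 to 1.03-fold. MCT4KO lay only 0.26 above the control medians on average and WT 0.63 above them, so the size of this difference is uncertain. Slc9a9 was highest in WT 2, where neutrophil and erythroid markers were also highest, and lowest among WT in WT 1, where neutrophil markers were next highest. Without WT 1 and WT 2 together the change was -0.39 (adjusted p = 0.57). The neutrophil and marrow list means of WT 3 and WT 4, 6.19 and 6.44, were still above the 5.33 to 5.99 of MCT4KO. The part of those cells in Slc9a9 was not tested.

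**Figure D2:**
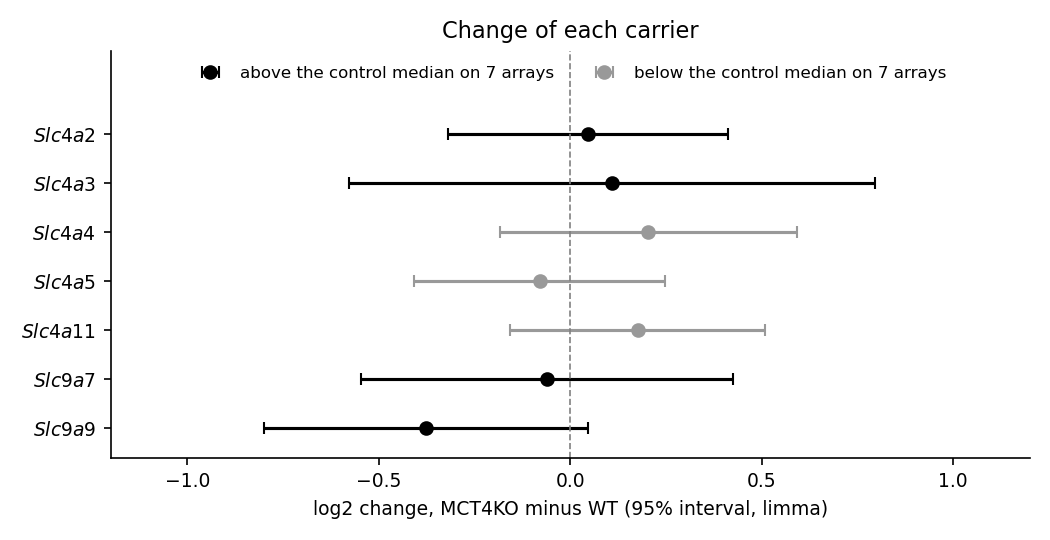
Log2 change of each carrier, MCT4KO minus WT (horizontal axis), as the limma estimate with its 95% interval, in black for genes above the control median on all 7 arrays and in grey for those below it. Every interval includes 0, from the narrowest for Slc4a5 to the widest for Slc4a3, and Slc9a9 lies farthest from 0 at -0.38.

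Leaving out each animal in turn showed which estimates rest on 1 animal. The change of Slc9a9 stayed below 0 in all of these fits, between -0.50 without WT 1 and -0.26 without WT 2, with adjusted p from 0.34 to 0.64. Slc4a5 also stayed below 0 and Slc4a4 and Slc4a11 stayed above 0, but all 3 were below background. The sign of Slc4a2 turned without MCT4KO 2 (-0.10) and without WT 2 (-0.03), and that of Slc9a7 turned without MCT4KO 1 (0.081), MCT4KO 3 (0.013) or WT 4 (0.062). No carrier reached an adjusted p under 0.05 in any of these fits.

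**Figure D3:**
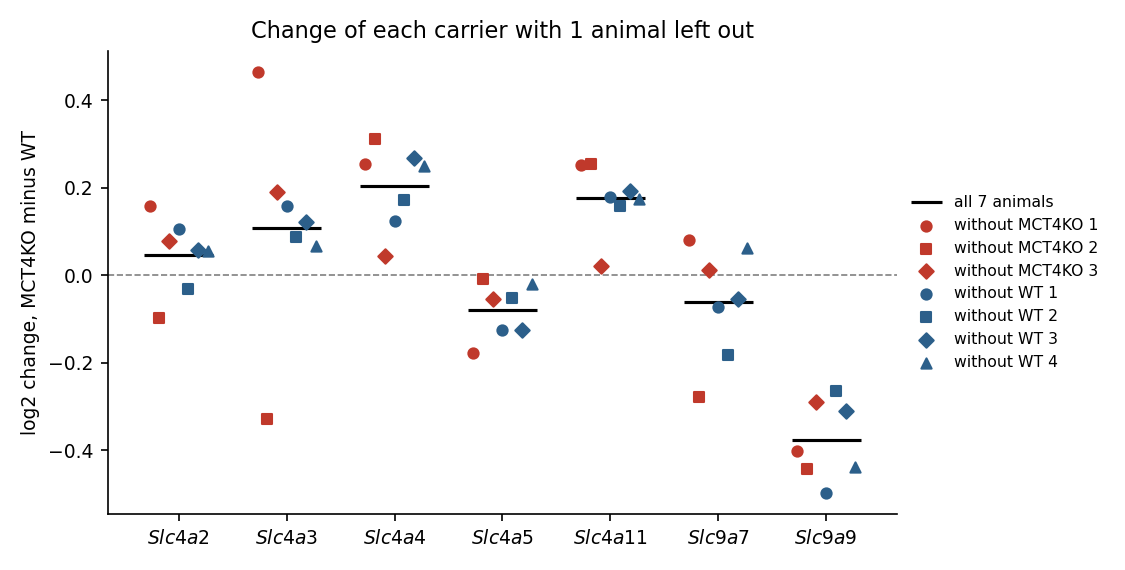
Log2 change of each carrier, MCT4KO minus WT (vertical axis), with all 7 animals (black line) and with 1 animal left out (red for an MCT4KO animal, blue for a WT animal, shapes for animal numbers). Slc4a3 moves between -0.33 and 0.47 with MCT4KO 2 or MCT4KO 1 left out, while Slc9a9 stays between -0.50 and -0.26.

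Start regions were read from RefSeq promoter windows of assembly GRCm38.p6, which hold 6 of the 7 carriers in 8 windows. The 250 bases before the start that each window uses were taken. All 8 stretches lie wholly or mostly within the RefSeq span of their gene. They are therefore not the bases before the gene's outermost start. CpG dinucleotides, which crowd the starts of broadly expressed genes, numbered 16 in the median window of genes above the control median on all arrays and 4 in that of genes below it on all arrays. The carriers varied on both sides: Slc4a2 had 28 and 16 in its 2 windows, Slc4a3 had 20, Slc9a7 had 19 and Slc9a9 had 3, while Slc4a5, below the controls, had 6 and Slc4a4, also below, had 44 and 3. The 3 windows below are shown for the carrier nearest to the top of the controls' range (Slc9a7), the carrier with the smallest p (Slc9a9) and the carrier that differed most among MCT4KO animals (Slc4a3), 5′ to 3′ on the gene's strand with each CG in capitals. The positions are chrX:20291828-20292077 on the minus strand for Slc9a7, chr9:94669642-94669891 on the plus strand for Slc9a9, and chr1:75546212-75546461 on the plus strand for Slc4a3. On its own strand the RefSeq gene begins at 20292035 for Slc9a7, 94669557 for Slc9a9 and 75546044 for Slc4a3.
Slc9a7: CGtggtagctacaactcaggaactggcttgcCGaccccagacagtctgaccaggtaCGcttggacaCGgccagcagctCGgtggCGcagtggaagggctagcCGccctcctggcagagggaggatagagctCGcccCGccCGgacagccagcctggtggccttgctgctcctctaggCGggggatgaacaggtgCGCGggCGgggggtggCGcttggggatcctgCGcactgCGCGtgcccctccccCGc
Slc9a9: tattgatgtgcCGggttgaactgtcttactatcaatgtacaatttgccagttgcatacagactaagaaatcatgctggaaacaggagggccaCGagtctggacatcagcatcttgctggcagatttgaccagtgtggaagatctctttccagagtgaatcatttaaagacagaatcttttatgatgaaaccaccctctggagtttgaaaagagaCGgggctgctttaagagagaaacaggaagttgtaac
Slc4a3: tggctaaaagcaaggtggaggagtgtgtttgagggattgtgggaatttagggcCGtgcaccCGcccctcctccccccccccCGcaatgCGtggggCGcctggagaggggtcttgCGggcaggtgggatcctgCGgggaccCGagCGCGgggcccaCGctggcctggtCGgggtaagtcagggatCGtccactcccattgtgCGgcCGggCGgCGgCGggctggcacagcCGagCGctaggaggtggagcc

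The core letters bound by hypoxia-inducible factors, ACGTG and GCGTG, were counted on both strands of the same windows; the 2 motifs differ in their first letter, and CACGTG holds ACGTG on both strands. ACGTG was in none of the 8 windows and in 18.3% of the windows of all measured genes. GCGTG was in the windows of Slc9a7 and Slc4a3, in 1 of the 2 windows of Slc4a2 and in 1 of the 2 windows of Slc4a4, and in 35.1% of all windows. Slc9a9 and Slc4a5 had neither. A match is a description of the letters and not a binding site.

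Other genes of acid handling were taken from lists of the same kind, and the fit called 1 of 66 measured list members, against 0.59% of all genes. The counts at an unadjusted p under 0.05 given for each list stand against 12.7% of all genes, and those of groups that did not overlap against 12%. The SLC4 and SLC9 genes outside the 8 had 12 measured, and 8 of the 12 were below the control median on all arrays. None passed the adjusted threshold in limma, 1 had an unadjusted p under 0.05, and the median change was 0.14. That gene was Slc4a9, a chloride-bicarbonate exchanger family member of kidney, at 4.75, 4.60 and 4.80 in MCT4KO 1 to 3 against 3.78, 4.03, 4.18 and 4.09 in WT 1 to 4 (adjusted p = 0.068), below background throughout. Slc9c1, a sperm exchanger, was also below background (adjusted p = 0.45). Slc9a8, which encodes the Golgi exchanger NHE8, averaged 10.63 in MCT4KO and 10.91 in WT, a log2 change of -0.27 ± 0.15 (SE; adjusted p = 0.48), with groups that overlapped. Slc4a1, the red cell anion exchanger, was singled out after its values were seen, at 7.86 to 8.13 in MCT4KO and 8.41, 9.57, 7.86 and 7.70 in WT 1 to 4 (adjusted p = 0.73). Its peak in WT 2 fell on the array where the erythroid enzyme gene Alas2 was highest, at 7.70.

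The SLC26 anion exchangers had 10 of 11 measured, 6 of them below background on all arrays, 0 called by limma and 1 at an unadjusted p under 0.05, with a median change of 0.090. Slc26a2, the sulfate carrier that cartilage needs to sulfate its proteoglycans, read 11.04, 11.31 and 10.66 in MCT4KO 1 to 3, against 10.09, 10.47, 10.52 and 10.66 in WT 1 to 4. MCT4KO 3 and WT 4 had the same reading, so the groups met, and the log2 change of 0.57 ± 0.19 (SE) had an unadjusted p of 0.015 and an adjusted p of 0.28. Slc26a3, a chloride-bicarbonate exchanger of intestine, averaged 5.64 in MCT4KO and 5.33 in WT (adjusted p = 0.48), with 1 reading above its array's control median. Slc26a7 was below background in every animal (adjusted p = 0.53).

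The 12 regulators of these carriers, all measured and 8 above the control median on all arrays, had 0 called by limma and 0 at an unadjusted p under 0.05, with a median change of -0.037. The smallest p belonged to Slc9a3r2, a scaffold of the exchanger NHE3, at 5.56, 5.28 and 6.15 in MCT4KO 1 to 3 against 6.04, 6.16, 6.15 and 5.98 in WT 1 to 4 (adjusted p = 0.42), values on both sides of the control median. Ahcyl1, which encodes the cotransporter activator IRBIT, averaged 15.82 in MCT4KO and 16.08 in WT, a log2 change of -0.26 ± 0.13 (SE; adjusted p = 0.46), and its groups overlapped. Chp2, a calcium-binding cofactor of sodium-proton exchangers, was below background in every animal (adjusted p = 0.50).

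Carbonic anhydrases, whose active members supply bicarbonate and protons to these carriers, had 16 of 16 measured, 0 called by limma and a median change of 0.067. At an unadjusted p under 0.05, 3 were higher in MCT4KO and 1 was lower, where 5.76% and 6.9% of all genes were, and 3 of 16 had groups that did not overlap. Car9 (0.58 ± 0.16), Car5b (0.65 ± 0.20) and Car2 (-0.95 ± 0.33) had the smallest p, with adjusted p of 0.17, 0.22 and 0.28. Car9 read 12.04, 12.13 and 12.36 in MCT4KO 1 to 3 against 11.40, 11.50, 11.59 and 11.89 in WT 1 to 4, and its groups did not overlap. Car2 read 10.54, 11.29 and 10.71 in MCT4KO 1 to 3 against 12.12, 12.53, 11.20 and 11.32 in WT 1 to 4, and its highest values were in WT 1 and WT 2, where the neutrophil and marrow markers were also highest. The part of those cells in Car2 was not tested.

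Among 9 other genes of proton, anion and lactate export, 2 were higher and 1 was lower in MCT4KO at an unadjusted p under 0.05. The groups did not overlap for 2 of the 9, and the median change was 0.0013. In limma 1 passed the adjusted threshold, Cftr, which encodes a chloride and bicarbonate channel of epithelia. It read 6.06, 5.94 and 5.47 in MCT4KO 1 to 3 against 4.43, 4.31, 4.80 and 4.83 in WT 1 to 4 (adjusted p = 0.033). Only MCT4KO 1 read above its array's control median, and both group means lay below the control medians, so no size of change is given, and the call was lost when any 1 animal was left out. Slc16a8, a lactate carrier of retinal pigment epithelium, was below background in every animal (adjusted p = 0.24), and Emb, a chaperone of lactate carriers, read above it in WT 2 alone (adjusted p = 0.39). All 7 measured acid-sensing receptors and channels were below the control median on all arrays, with 0 called by limma and 0 at an unadjusted p under 0.05, and a median change of 0.14. The smallest p among them belonged to Asic2, Gpr132 and Gpr4, with adjusted p of 0.45, 0.47 and 0.64.

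**Figure D4:**
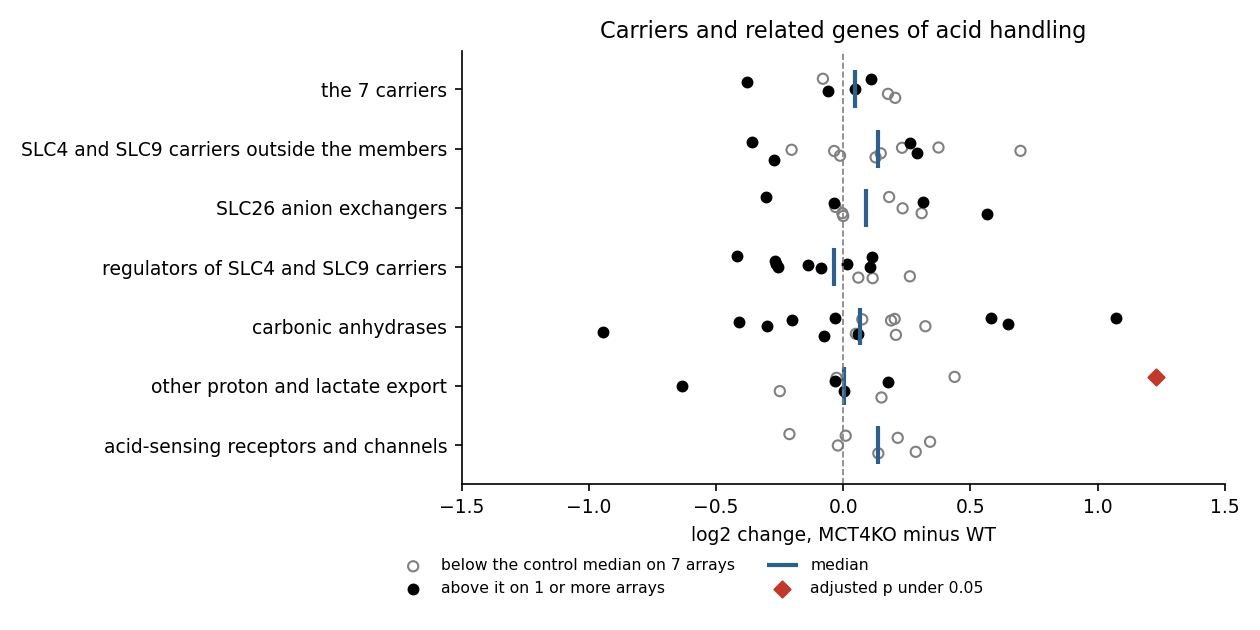
Log2 change, MCT4KO minus WT (horizontal axis), of the 7 carriers and of the members of 6 lists of related genes, with open circles for genes below the control median on all 7 arrays, filled circles for the others, a blue line for each median and a red diamond for the gene with an adjusted p under 0.05. That gene is Cftr, whose group means lie below the control medians, and the list medians lie between -0.037 and 0.14.

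The profiles most like those of the 2 carriers with the smallest p, Slc9a9 and Slc4a11, were sought among the 9837 genes above the control median on all arrays, by the root mean square difference on the log2 scale after centring each gene on its own mean over the 7 arrays. For Slc9a9, whose own spread about its mean was 0.30, the nearest were Sinhcaf (0.080), Spata1 (0.098) and Mtbp (0.100), which share its high readings in WT 2 and WT 3. For Slc4a11, with a spread of 0.17 and all readings below background, the nearest were Timp2 (0.044), Agpat2 (0.047) and Vdac1 (0.047), each highest in MCT4KO 3. These are descriptions over 7 arrays, and with this many genes close matches are common.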

How the data were processed

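RNA of nucleus pulposus from 3 MCT4KO and 4 WT mice was measured on Affymetrix arrays, 1 per animal. The authors deposited 1 log2 value per feature and array. The submitters' processing notes name Affymetrix Expression Console, version 1.4.1. How background was corrected, arrays normalized and probes summarised, and on which genome build, is not stated in what was used here; log2 is read from the values' range. The highest value, 19.4, exceeds the log2 of a scanner reading, so changes are on the deposited scale. No normalization was added.

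The table holds 28846 features, with 22206 transcript clusters, and 19572 of them carried 1 gene symbol. Symbols were updated by gene identifier through a RefSeq table of GRCm38.p6. Where a gene had several features (55 genes), that with the highest mean was kept, leaving 19505 genes. The 5222 negative control features gave each array's background. The fit was lmFit and eBayes of limma, version 3.58.1, under R 4.3.3, on MCT4KO against WT over 7 arrays with no covariate, two-sided, with Benjamini-Hochberg adjustment over all genes, a threshold of 0.05 and 95% intervals. An array has no read depth. Precision rests on 7 animals, and the median SE of a change was 0.17. On simulated data of 19505 genes in 10 runs for this comparison, with 200 changed genes, 6.6% of changes of 0.5, 63% of changes of 1 and 95.4% of changes of 2 on the log2 scale were recovered, and 4.45% of calls were unchanged genes. The simulation shuffled spreads between genes and added the full change at any level. Its rates therefore do not cover genes within the range of the controls, as the carriers are.

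The members and lists were chosen with earlier results of these data known. All members were to be named, with up to 3 genes of smallest p and every called gene per list, and the 3 nearest profiles of the 2 members of smallest p. Alternatives were quantile normalization, median centring, a filter on low genes, averaged features, all transcript clusters, a trended robust prior, values raised to the control median, the replicate number as a block, and leaving out animals. Cell type markers were used to describe the tissue.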

Additional observations from a re-analysis of the deposited data

Results flagged for a closer look

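In 43 sets of WT values checked for 1 animal far from the other 3, 1 stood out, where chance gives about 5%. Slc26a7, an anion exchanger, read 4.94 in WT 4 against 4.39 to 4.42 in WT 1 to 3, and the gap to the nearest animal was 0.962 of the whole range. Every reading of this gene was below the control median of its array, and the MCT4KO animals read 5.13, 4.53 and 4.87.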

How the results depend on the processing

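No member passed the adjusted threshold under any of the alternatives with a test, where the lowest adjusted p was 0.34. The count of all genes called rose from 115 to 164 with the filter on low genes and to 139 with the trended robust prior. It was 112 with median centring, 108 with averaged features and 79 with quantile normalization. It fell to 60 with all transcript clusters tested and to 16 without WT 1 and WT 2 together, and lay between 15 and 64 when 1 animal was left out. Same-numbered animals did not deviate together (r = -0.13, 0.016 and 0.050 across genes for numbers 1 to 3). This gives no sign that the numbers pair them but cannot exclude a pairing. The replicate block left 6 genes called. With values below the control median raised to it, the change of Slc4a11 was -0.0079, the difference of the groups' control medians. Cftr, the 1 called gene of its list, was not tested where low genes were left out (0 called), since its own mean is low, and was not called (0) with all transcript clusters tested, with the replicate block, without WT 1 and WT 2 together and without any 1 animal (0 to 0 called). The fit recovers few changes of 0.5 on the log2 scale, the readings of every carrier lie within the range of the negative controls, and changes of that size could go unseen.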
